A study of Triticum aestivum with 12 samples.

Results

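The interaction of the LRM spray with drought was examined in leaves of bread wheat (Triticum aestivum, wild type, variety Chinese Spring L42), as the difference between the LRM effect under drought and the LRM effect under full irrigation. LRM is a microalgae-based biostimulant, and all 12 of the 12 libraries of the series enter the contrast, (drought_LRM minus drought_water) minus (irrigated_LRM minus irrigated_water), on the log2 scale. The drought_LRM and drought_water plants received 30 ml at each of 2 waterings a week, and the irrigated_LRM and irrigated_water plants received 180 ml, in greenhouse pots that retained 180 ml. LRM at 0.5% in water was applied to the leaves of the drought_LRM and irrigated_LRM plants 1 day after they were planted, with repeats each 14 days, and the drought_water and irrigated_water plants were sprayed with water. Each group holds 3 libraries of polyA RNA. Plant age at harvest and leaf water status are not stated in these sources. Nothing in the labels ties the libraries of a group to different plants, and the spread on which the p-values rest may be partly technical.

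When water runs short, leaves of cereals close their stomata under the hormone abscisic acid and raise transcripts for protective proteins such as dehydrins, while transcripts of photosynthesis and growth commonly decline. Biostimulants are applied to crops with the aim of modifying such responses. An interaction asks whether the spray acted differently when water was short: a value of 0 means that LRM multiplied a transcript by the same factor under both irrigations, and a value of 1 means that its factor under drought was 2 times its factor under full irrigation. Read the other way round, the same number is the drought response with LRM minus the drought response with water.

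Bread wheat carries related copies of most genes on its A, B and D subgenomes, and a count may include reads of a near-identical copy, so each gene named here is uncertain in that respect. The identifiers show a chromosome arm but no gene name. None of them was found in the table of 155467 RefSeq genes of assembly IWGSC CS RefSeq v2.1 (0 matches), so leaf markers, drought pathways and other named gene lists could not be applied and no function is given to a gene. Total counts ran from 17541561 in drought_LRM 2 to 47305447 in drought_water 3, and the next shallowest library, irrigated_LRM 2, had 31381925. Replicates of a group differed by more than counting noise, with chi-square values of 4.17 to 27.4 for each degree of freedom.

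A different effect of the spray under drought was called in a small share of genes, and these genes were mostly set apart by the droughted, LRM-sprayed leaves. Of 57226 genes tested with edgeR's quasi-likelihood test, 487 (0.851%) passed a Benjamini-Hochberg adjusted p below 0.05. The interaction was positive in 267 genes (0.467%) and negative in 220 (0.384%). That split differed between settings, with 346 positive and 182 negative calls by library totals in place of TMM. It was 592 and 150 by limma on log2(FPKM + 1), where the test and the transform differ as well as the scaling. The median interaction was 1.37 among the positive genes and -1.25 among the negative ones, beside -0.02 over all genes tested, where the middle 80% lay between -0.67 and 0.66. At least a 2-fold interaction was seen in 201 positive and 161 negative genes, and at least a 4-fold one in 55 and 55. In 19 called genes 1 group had 0 counts, and with these set at a bound of 3 counts over that group the medians and the counts of folds were the same. Among genes with counts in every group, interactions ran from 0.55 to 4.53 and from -4.48 to -0.58. The count of calls was 224, 135 and 323 without drought_LRM 1, 2 or 3, and 1279, 25 and 193 without drought_water 1, 2 or 3. It was 37, 30 and 95 without irrigated_LRM 1, 2 or 3, and 169, 20 and 181 without irrigated_water 1, 2 or 3. DESeq2 called 1742 genes (4.5% of the 38740 genes it gave an adjusted p). By edgeR an unadjusted p below 0.05 was seen in 7387 genes (12.9%).

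The positive genes were at their highest in drought_LRM. Over the 267 genes the median of the group means was 21.4 CPM in drought_LRM and 9.99 CPM in drought_water, against 5.79 CPM in irrigated_LRM and 6.54 CPM in irrigated_water. LRM-sprayed leaves were thus above water-sprayed leaves under drought and slightly below them under full irrigation. The median LRM difference was 1.15 on the log2 scale under drought and -0.18 under full irrigation. In 260 of the 267 genes every drought_LRM library lay above all other 9 libraries, which held for 8.37% of all genes tested. Since the contrast itself favours genes in which 1 group stands apart, these counts describe the called genes and are no further evidence for them.

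The negative genes had the opposite profile. Over the 220 genes the median of the group means was 4.47 CPM in drought_LRM and 9.40 CPM in drought_water, against 12.5 CPM in irrigated_LRM and 10.9 CPM in irrigated_water. The median LRM difference was -1.05 under drought and 0.23 under full irrigation. All drought_LRM libraries lay below the other 9 in 204 of the 220 genes, against 7.7% of all genes tested.

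**Figure D1:**
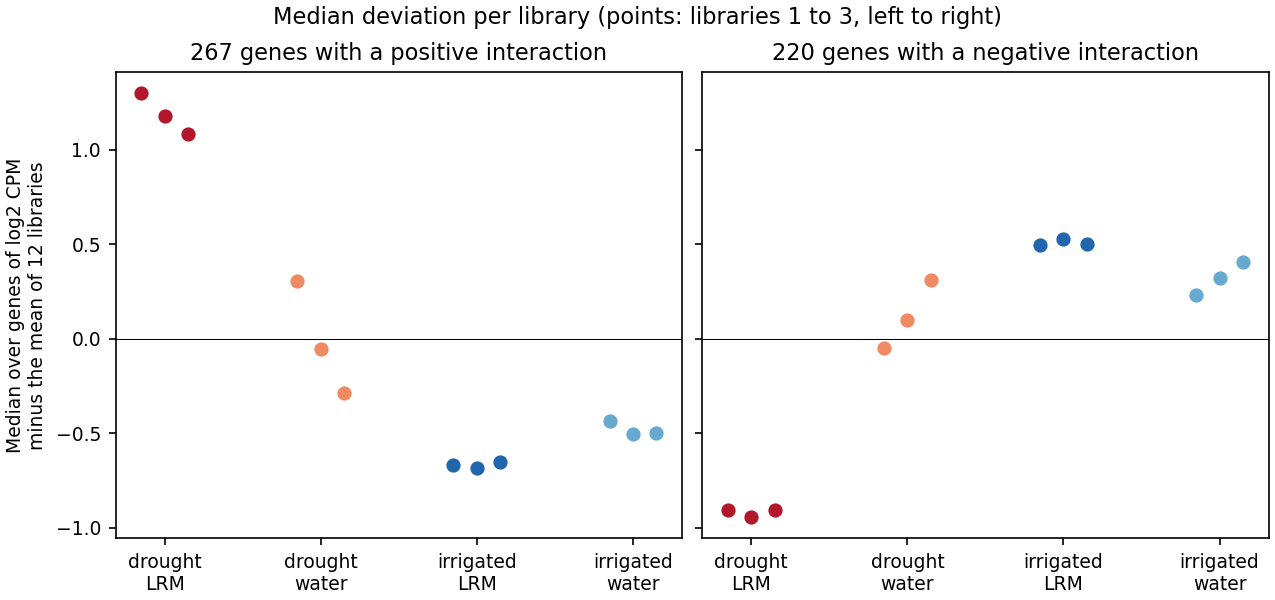
Median over genes of the log2 CPM of each library minus the mean of the 12 libraries (vertical axis), for the 267 genes with a positive and the 220 with a negative interaction; each point is 1 library, and groups run along the horizontal axis. The drought_LRM libraries stand at 1.08 to 1.30 and at -0.94 to -0.90, while the drought_water libraries spread from -0.29 to 0.31 and from -0.05 to 0.31.

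Most of the size of the called interactions came from the droughted plants. The LRM difference under drought made up a median of 86.4% of the interaction in positive genes and 82.3% in negative genes, and more than 50% of it in 255 and 202 genes. These figures were not taken over all genes tested, so they describe the called genes only. An LRM difference of the opposite sign under full irrigation added to the interaction in 212 positive genes (79.4%) and 179 negative genes (81.4%). Opposite signs were present in 42.3% of all genes tested. Opposite signs enlarge the contrast, so a called gene is more likely to have them. Both differences reached an unadjusted p below 0.05 by edgeR with opposite signs in 40 positive and 78 negative genes, a count that was not taken over all genes tested.

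The irrigated LRM-sprayed leaves often stood at the far end from the droughted ones. All irrigated_LRM libraries lay below the other 9 in 63 positive genes, against 1.08% of all genes tested, and above the other 9 in 74 negative genes, against 1.17%. In 59 positive and 65 negative genes drought_LRM stood apart at one end and irrigated_LRM at the other, which held for 0.264% and 0.294% of all genes tested. The group means ran from drought_LRM through drought_water and irrigated_water down to irrigated_LRM in 188 of the 267 positive genes, against 8.46% of all genes tested. They ran in the reverse order of height in 119 of the 220 negative genes, against 8.37%.

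**Figure D2:**
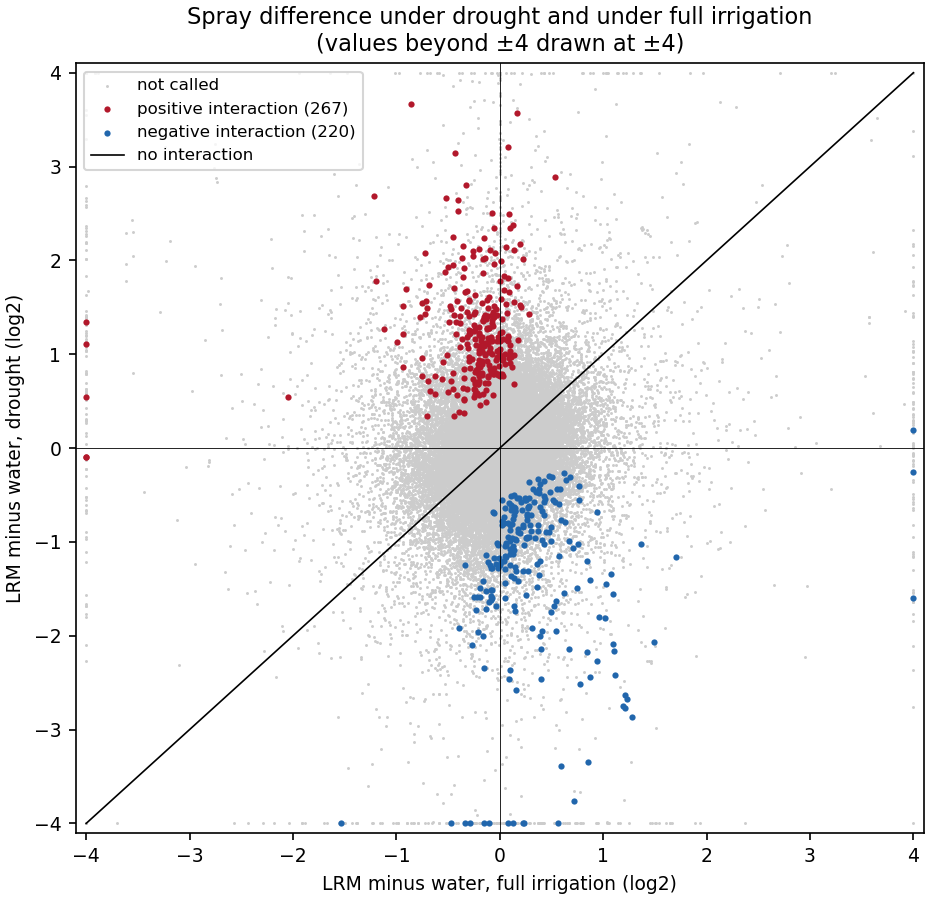
Log2 difference of LRM minus water under drought (vertical axis) against the same difference under full irrigation (horizontal axis) for all 57226 genes tested, each point a gene; the diagonal marks no interaction, and values beyond the axes are drawn at their edge. The 267 positive genes lie mainly at the upper left and the 220 negative genes mainly at the lower right, in the quadrants of opposite sign.

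The same values can be read as drought responses with LRM and with water. The median difference of drought from full irrigation was 1.87 with LRM and 0.45 with water in the positive genes, and -1.41 with LRM and -0.16 with water in the negative genes. The signs under the sprays were opposite in 32 of the 267 positive and 62 of the 220 negative genes, against 34.3% of all genes tested, so that among the negative genes the share was near that of all genes. In 235 positive and 157 negative genes the signs were the same and the change was larger with LRM. A positive interaction with a rise under both sprays, or a negative one with a fall under both, requires this by definition. These counts thus describe the called genes and are no evidence of a larger response in general.

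On the linear scale the difference of differences of mean CPM had the same sign as on the log2 scale in 486 of the 487 called genes, while it had the other sign in 3.95% of all genes tested. The exception, Traes_2DL_AD9E9E905, which is named after its values were seen, averaged 0 CPM in drought_LRM and 0.828 CPM in drought_water, against 0.429 CPM in irrigated_LRM and 1.26 CPM in irrigated_water. Its LRM and water levels were about equally far apart in CPM under both irrigations, although drought_LRM had no counts.

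The genes described in full are the 2 positive and 2 negative ones that ranked first by the number of refits, each without 1 library, in which they were called, and then by the size of the interaction, among called genes with at least 5 CPM in the highest group. All 4 were called in 12 of 12 refits.

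Traes_3DS_9B89BAD5A, on the short arm of chromosome 3D, stood at 43.0, 54.9 and 41.1 CPM in drought_LRM 1, 2 and 3 and at 20.4, 17.1 and 11.7 CPM in drought_water 1, 2 and 3. Under full irrigation it stood at 7.83, 9.13 and 7.89 CPM in irrigated_LRM and at 10.7, 11.1 and 10.4 CPM in irrigated_water. LRM libraries were the higher ones under drought and the lower ones under full irrigation, without overlap in either case. The interaction was 1.87 (SE 0.24, 95% interval 1.35 to 2.40, edgeR adjusted p = 0.0101), so that the ratio of LRM to water under drought was 3.66 times that under full irrigation. The LRM difference was 1.495 on the log2 scale under drought (SE 0.17) and -0.38 under full irrigation (SE 0.18), where it did not pass its own test (edgeR adjusted p = 0.577).

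Traes_7DL_CCBA1A1C9, on the long arm of 7D, had the same order of groups. It stood at 32.7, 23.6 and 22.1 CPM in drought_LRM 1, 2 and 3 and at 11.4, 8.30 and 9.82 CPM in drought_water 1, 2 and 3. With full water it stood at 5.35, 6.22 and 5.64 CPM in irrigated_LRM and at 7.43, 6.93 and 6.79 CPM in irrigated_water. The groups again did not overlap, and the gap was widest between the droughted groups. The interaction was 1.71 (SE 0.22, 95% interval 1.24 to 2.18, edgeR adjusted p = 0.00996), made up of 1.41 under drought (SE 0.15) and -0.30 under full irrigation (SE 0.16, edgeR adjusted p = 0.633 for that part).

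Traes_7DL_630534A5F, also on the long arm of 7D, was lowest in droughted leaves sprayed with LRM. It stood at 1.68, 2.96 and 3.45 CPM in drought_LRM 1, 2 and 3 and at 11.6, 14.98 and 17.5 CPM in drought_water 1, 2 and 3. The irrigated plants had 21.7, 26.5 and 15.6 CPM in irrigated_LRM and 15.9, 15.3 and 17.3 CPM in irrigated_water. The irrigated groups overlapped, and the drought_water libraries overlapped with irrigated_water, so drought_LRM alone lay apart from the rest. The interaction was -2.86 (SE 0.33, 95% interval -3.58 to -2.15, edgeR adjusted p = 0.00869). Its part under drought was -2.47 (SE 0.25) and its part under full irrigation 0.40 (SE 0.22, edgeR adjusted p = 0.648).

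Traes_5BS_36C5B305D, on the short arm of 5B, had the smallest adjusted p of all genes tested. It stood at 1.02, 1.24 and 1.22 CPM in drought_LRM 1, 2 and 3 and at 3.57, 4.94 and 4.77 CPM in drought_water 1, 2 and 3. The irrigated plants had 11.9, 10.9 and 8.14 CPM in irrigated_LRM and 6.67, 7.25 and 7.33 CPM in irrigated_water. None of the 4 groups overlapped with another, and the LRM groups were the lowest and the highest. The interaction was -2.49 (SE 0.25, 95% interval -3.01 to -1.96, edgeR adjusted p = 0.00472), made up of -1.94 under drought (SE 0.19) and 0.54 under full irrigation (SE 0.16, edgeR adjusted p = 0.412 for that part). In all 4 named genes drought_water 1 was the drought_water library nearest to drought_LRM.

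**Figure D3:**
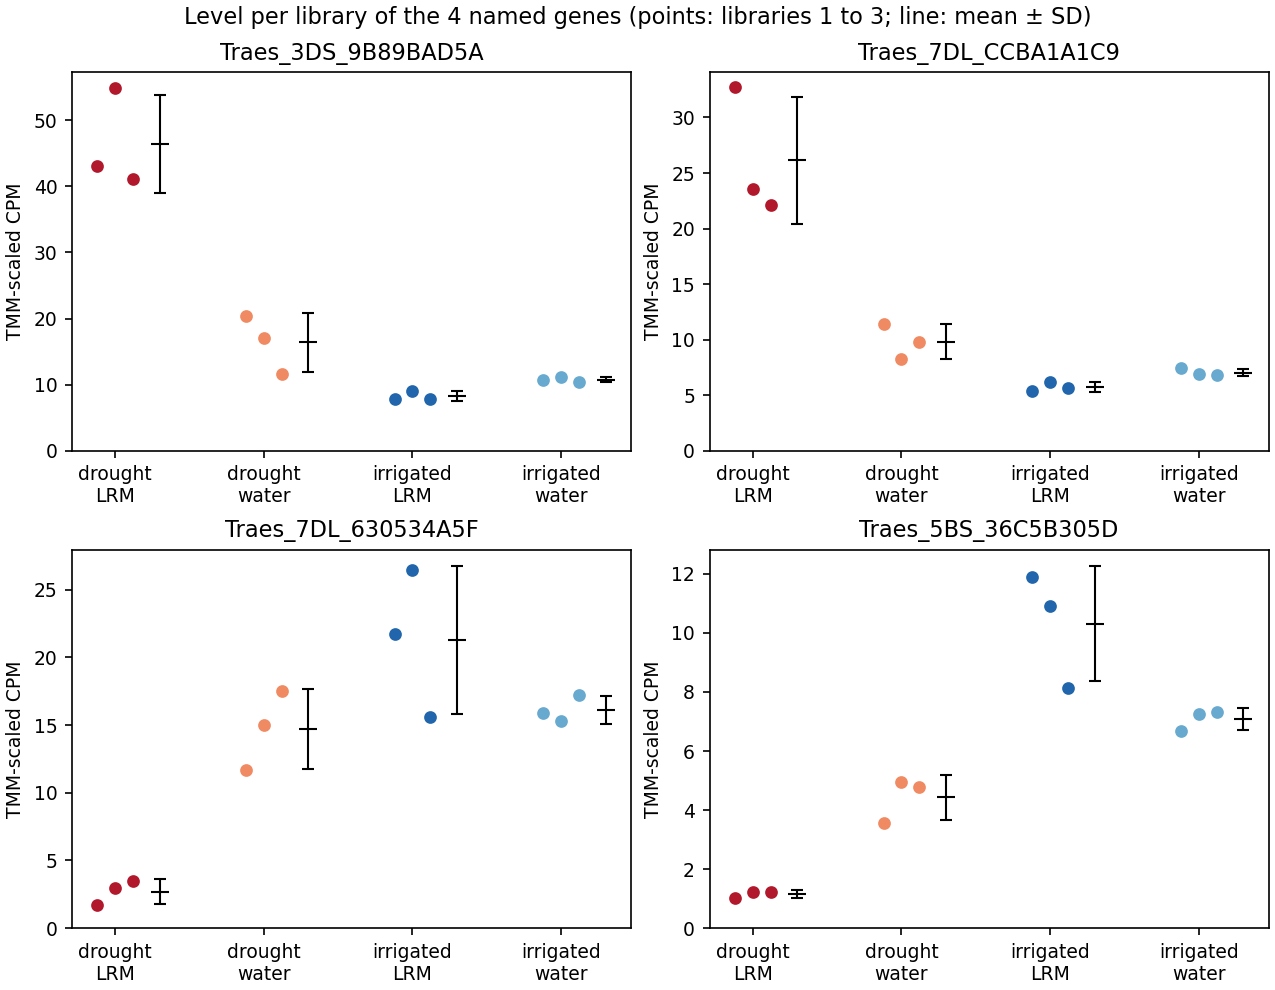
TMM-scaled CPM (vertical axis, from 0) in each library of the 4 named genes, by group; points are libraries 1 to 3 and the black bar is the mean ± SD of 3. Traes_3DS_9B89BAD5A averages 46.3 CPM in drought_LRM, 16.4 in drought_water, 8.28 in irrigated_LRM and 10.7 in irrigated_water, while Traes_7DL_630534A5F averages 2.70 CPM in drought_LRM and 14.7 in drought_water.

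A core of 16 genes was called with the same sign in each of the 12 refits, 4 positive and 12 negative, and the named genes are among them. In all 4 positive ones the drought_LRM libraries lay above the other 9 libraries, against 8.37% of all genes tested. In all 12 negative ones they lay below them, against 7.7%. The LRM differences under drought and full irrigation had opposite signs in 4 of the positive and 9 of the negative genes, against 42.3% of all genes tested. The core was chosen by its calls on these same libraries, so these counts describe it and are no further evidence. Group means of the positive ones were 3.60 to 46.3 CPM in drought_LRM and 1.55 to 16.4 CPM in drought_water, against 0.840 to 10.5 CPM in irrigated_LRM and 1.60 to 11.2 CPM in irrigated_water. The positive interactions ran from 1.26 to 2.15. Among the 10 negative genes with counts in every group they ran from -3.21 to -1.17, and the other 2 had 0 counts in drought_LRM. DESeq2 and limma-voom each called 14 of the 16.

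The rest of the calls rested more on single libraries. Of the 487 genes, 263 were called in at most 2 of the 12 refits and 106 in at least 6. For the 1279 genes called without drought_water 1, of which 809 were positive and 470 negative, the left-out library was set beside its group. It lay on the side that reduces the interaction, nearer to drought_LRM than the mean of drought_water 2 and 3, in 1243 of the 1277 genes that were also tested with all libraries, with a median distance of 0.47 on the log2 scale. The genes were chosen on the libraries that remained, so a left-out library is likely to lie on that side, and most did: drought_LRM 3 in 282 of 323 genes, irrigated_LRM 3 in 77 of 95 and irrigated_water 3 in 145 of 181, with medians of 0.30, 0.31 and 0.25. The median on that side was largest for drought_water 1. Other libraries lay closer to even, such as irrigated_LRM 1 in 21 of 37 genes, drought_water 2 in 13 of 25 and irrigated_water 2 in 10 of 20. How much of the place of drought_water 1 comes from that choice of genes was not tested. In the 193 genes called without drought_water 3, by contrast, that library lay on the side that enlarges the interaction in 175, with a median distance of 0.51. Of the 1279 genes, 479 were among the 487, and all of the 20 called without irrigated_water 2 and of the 25 called without drought_water 2 were among them.

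**Figure D4:**
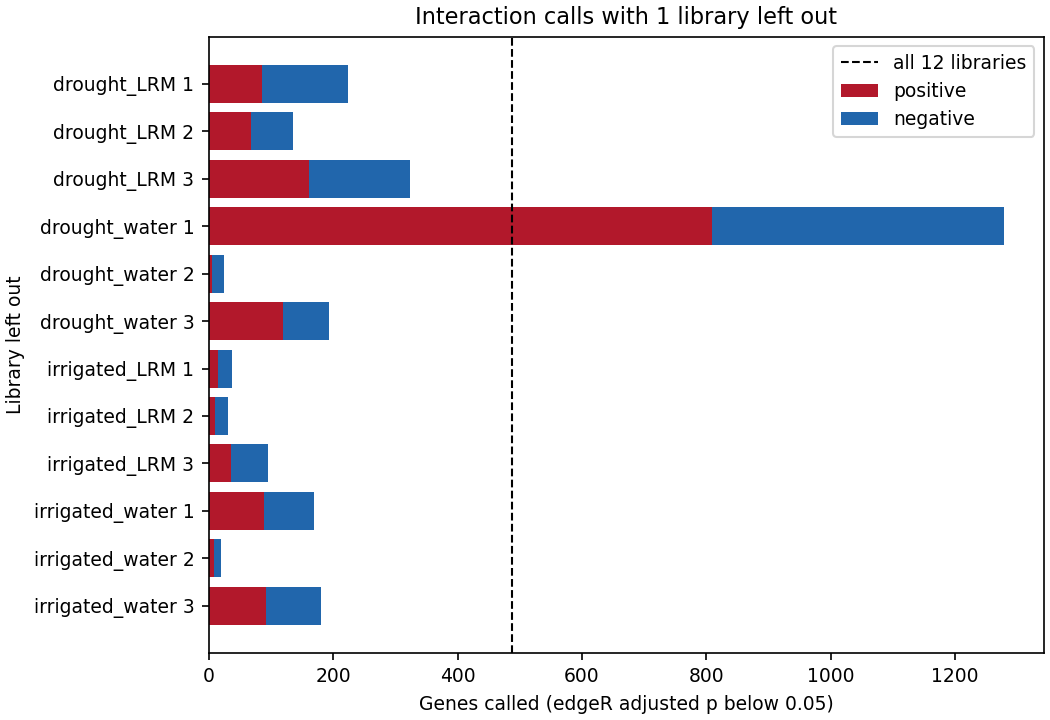
Number of genes called for the interaction (horizontal axis, edgeR adjusted p below 0.05) with the library on the vertical axis left out, split into positive and negative; the dashed line marks the 487 calls with all 12 libraries. The bars run from 20 genes without irrigated_water 2 to 1279 without drought_water 1.

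With irrigated_water 1, irrigated_LRM 1 and drought_LRM 2 left out together, which earlier results of these data had set apart from their groups, edgeR called 12 genes, of which 4 were among the 487 and 2 in the core. Traes_5BS_36C5B305D was among the calls (edgeR adjusted p = 0.0384), and the other named genes had adjusted p values of 0.0656 to 0.0805 with their direction as before. That fit has 9 libraries in place of 12. The earlier results are not shown here, and the library quality weights of limma-voom gave another order. The lowest weight was that of drought_LRM 1 (0.416), while irrigated_water 1 had 0.637, irrigated_LRM 1 had 0.850 and drought_LRM 2 had 1.09.

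The share of genes called was higher at higher mean CPM, a scale that is not per length. It was 0.182% of genes under 1 CPM on average over the libraries, 0.561% between 1 and 5 CPM, 1.29% between 5 and 20 CPM, 2.76% between 20 and 100 CPM and 4.90% at 100 CPM or more. The median SE of the interaction was 0.75 in the lowest of these classes and between 0.16 and 0.31 in the others. Of the 47 called genes at 100 CPM or more, 23 were positive and 24 negative.

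For many genes the data bound the interaction from both sides. The 95% interval lay within -1 and 1, so that an interaction of 2-fold lay outside it, in 27875 genes (48.7%). This held for 2.12% of genes under 1 CPM, where a missing call says little, and for 55.4% between 1 and 5 CPM. It held for 85.0% between 5 and 20 CPM, 83.5% between 20 and 100 CPM and 77.6% at 100 CPM or more. Among called genes with counts in every group, the whole interval lay beyond 2-fold in 80 positive and 60 negative genes.

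By subgenome, 0.799% of tested genes were called on A, 0.832% on B and 0.923% on D. The identifiers name 41 arms, with 3B named without an arm. Counted by identifier, the homoeologous short arms of chromosome group 5 held the highest shares among them. These were 13 of 651 genes on 5AS, 12 of 728 on 5DS (1.65%) and 11 of 722 on 5BS (1.52%). Of their 36 called genes 26 were negative, which is 1.24% of the 2101 tested there, beside 0.352% of the 55125 elsewhere. Positive calls were 0.476% there and 0.466% elsewhere. The 26 negative identifiers held 22 distinct stems, and the repeated stems were on 5AS. The next highest arm was 1DL (1.43%). Shares by stem were not taken, so the place of 5AS above 1DL may rest on the repeats. The short arms of group 5 were singled out after their shares were seen, and no test was made of them.

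**Figure D5:**
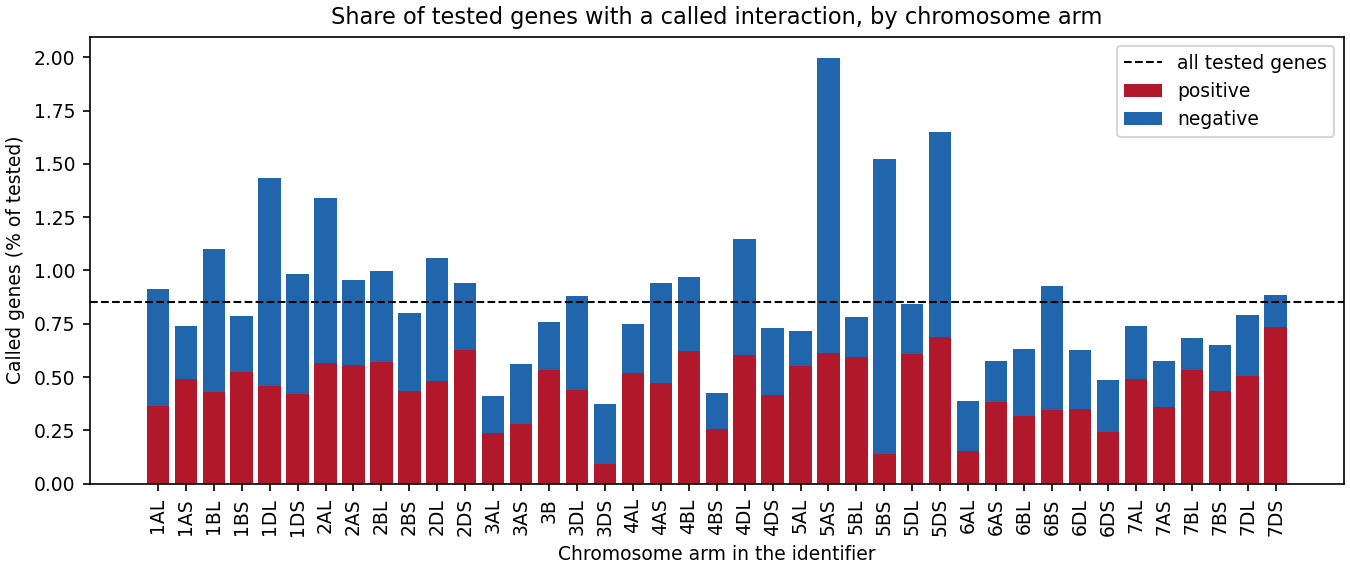
Share of tested genes called for the interaction (vertical axis, %) on each chromosome arm named in the identifiers (horizontal axis), split into positive and negative; the dashed line is the 0.851% of all genes tested. The arms 5AS, 5DS and 5BS stand highest, with 13, 12 and 11 called identifiers, mostly through negative interactions. Some of those on 5AS differ only in a final character.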

How the data were processed

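PolyA RNA from wheat leaves was sequenced in 12 libraries. The authors deposited a table of whole-number read counts per gene identifier and a further table with no unit in its header, which was taken as FPKM because its values follow from the counts, the library totals and 1 constant per gene. Per the submitters' processing notes, the tools included HISAT2, StringTie, FastQC and DESeq2, with no version or role given. The build, the annotation, the strandedness and the counting of multi-mapping reads are not given in the sources. Of 99386 identifiers in the deposited count table, 75198 had at least 1 count and 57226 passed filterByExpr.

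All libraries entered 1 edgeR 4.0.16 quasi-likelihood fit (R 4.3.3) of 4 group means with TMM normalization. SE values are the log2 interaction divided by the square root of F, and CPM values are TMM-scaled. Depth was 17541561 to 47305447 counts, and bounds at 0 counts cover counting error only. Alternatives used DESeq2 1.42.0, limma 3.58.1 on counts and on log2(FPKM + 1), other scalings and filters, the replicate number as a block, and refits without single libraries. Among the FPKM values, 176 of 555204 cells with more than 20 counts were about 1000 times the value implied by the counts, so it served only as an alternative, as deposited and with these cells divided by 1000. The edgeR script was tested on simulated data.

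Named genes were the 2 of each direction with most refits called, then the largest interaction, with at least 5 CPM in the highest group. The comparison, its alternatives and this rule were chosen with earlier results of these data known.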

Additional observations from a re-analysis of the deposited data

Results flagged for a closer look

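The LRM effect differed between drought and full irrigation by the test of the difference itself in 487 genes (edgeR). Among these 487 are the named genes, which were picked by the refits that called them and by size. The interaction was 1.87 for Traes_3DS_9B89BAD5A, 1.71 for Traes_7DL_CCBA1A1C9, -2.86 for Traes_7DL_630534A5F and -2.49 for Traes_5BS_36C5B305D, on the log2 scale. In each of these the LRM difference had opposite signs under the irrigations.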

How the results depend on the processing

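The count of 487 calls changed with the tool, the filter and the libraries kept. It was 1742 by DESeq2 (928 positive, 814 negative; 4.5% of the 38740 genes with an adjusted p), 989 with a filter of 5 CPM in the highest group (569 and 420), where fewer genes were tested, 763 by limma-voom with library quality weights (430 and 333), and 12 without 3 libraries together (5 and 7). On log2(FPKM + 1), limma called 742 genes as deposited (592 and 150) and 825 with the 1000-fold cells divided (655 and 170). Refits without 1 library gave 20 to 1279 calls, 5 to 809 positive and 12 to 470 negative. The cause of these changes was not tested. Of the 487 genes, 449 were called with the same sign by DESeq2 and 416 by limma-voom. Without TMM factors the median over all genes moved by 0.13 (log2), and there were 346 positive and 182 negative calls. With the replicate block 811 genes were called (451 positive, 360 negative). Same-numbered libraries correlated at 0.1 or less in 16 of 18 pairs, and 4 of the 12 libraries correlated best with their own number. The other pairs joined irrigated_water 1 with drought_water 1 (0.116) and with irrigated_LRM 1 (0.123). With 3 libraries in a group these correlations cannot decide whether the numbers mark a block. The named genes kept their direction in 24 of 24 alternatives each and their call in at least 23, with adjusted p up to 0.0805, but 12 of the 24 are the refits by which they were picked. Genes with an interval within -1 and 1 numbered 25178 to 27051 without 1 library. The median SE was highest, at 0.75, for genes under 1 CPM.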

Other observations

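The 26 negative genes on the short arms of chromosome group 5, chosen after the shares by arm were seen, had larger interactions than the negative genes elsewhere. Their median interaction was -3.10 on the log2 scale, beside -1.21 for the other 194 negative genes, with the gene that had a group at 0 counts set at its bound, and 22 of the 26 were at least 4-fold. The median of their group means was 0.294 CPM in drought_LRM and 1.26 CPM in drought_water, against 6.69 CPM in irrigated_LRM and 2.89 CPM in irrigated_water. For the other 194 it was 5.56 CPM in drought_LRM and 11.985 CPM in drought_water, against 15.7 CPM in irrigated_LRM and 14.3 CPM in irrigated_water. Called genes of either sign had a median interaction size of 1.79 between 1 and 5 CPM on average over the libraries. It was 1.11 to 1.21 in the classes of higher CPM. How much of the larger interactions comes from the lower levels on these arms was not tested. Irrigated_LRM was the highest group in 24 of the 26 genes, and in 167 of all 220 negative genes, so this was common to negative calls. All of its libraries lay above the other 9 libraries in 19 of the 26 and in 74 of the 220, against 1.17% of all genes tested. Both LRM differences reached an unadjusted p below 0.05 by edgeR with opposite signs in 23 of these 26 genes, and in 55 of the other 194. This count was not taken over all genes tested. Both sets were picked for a negative interaction, and some of the 26 identifiers are near duplicates, so the counts are descriptions only.

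The 26 identifiers held 22 distinct stems, as some differ only in a final character and may share reads. Related copies on 5A, 5B and 5D may share reads as well, which was not tested. In place of 26 there were 22, 13 and 16 negative calls on these arms without drought_LRM 1, 2 or 3, and 36, 7 and 13 without drought_water 1, 2 or 3. There were 8, 6 and 19 without irrigated_LRM 1, 2 or 3, and 14, 2 and 16 without irrigated_water 1, 2 or 3. Negative calls elsewhere changed as well, to 13 without drought_water 2 and 14 without irrigated_LRM 1, for example. The share of tested genes with a negative call was higher on these arms than elsewhere in 24 of 24 alternatives. All of these reuse the libraries in which the arms were picked for their shares, so they are no further evidence. Several of the ratios rest on few calls. The ratio of the shares ran from 1.32 by limma-voom with library quality weights to 15.03 without irrigated_LRM 1. It was 1.44 by limma-voom, 1.39 by DESeq2, 2.47 with the replicate block, 2.76 by edgeR with robust empirical Bayes, 3.88 with RLE factors, 3.99 with library totals, and 3.81 and 4.11 by limma on log2(FPKM + 1) as deposited and with the 1000-fold cells divided.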
